A study of Homo sapiens with 6 samples.

Results

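The genes described here encode MLL itself and the proteins that MLL fusion oncoproteins work through: KMT2A, MEN1, PSIP1, DOT1L, MLLT1, MLLT3, MLLT10, AFF1 and AFF4. They were chosen by name, and all 9 were found among the 58381 genes of the count table and passed the filter on low counts that left 17219 genes for testing. The study sequenced RNA of MOLM-13, an established human line of acute myeloid leukaemia, kept for 20 h in 5 µM DB2115 or for 20 h in vehicle, which was 0.001% DMSO, in both cases in RPMI medium with serum. DB2115 is known here only by this code name, and the series title names the transcription factor PU.1, so the comparison asks how transcription in this line responded to the compound. Both groups share one genetic background, a line that carries the MLL-AF9 fusion, in which the front part of KMT2A is joined to the end part of MLLT3. The labels list 3 samples in each group, but the count table holds columns A, B and V for each group. Column V equalled A plus B, to within 1% for 98.5% of genes with 200 counts or more. It was left out, and each group is represented by libraries A and B (n = 2). Nothing in the labels says that libraries A and B began as separate cultures. The p-values below therefore rest on a spread that may be technical.

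KMT2A (MLL) is a methyltransferase of lysine 4 on histone H3. Its N-terminal part, which every MLL fusion keeps, is tethered to chromatin by menin (MEN1) and LEDGF (PSIP1). The fusion partners AF9 (MLLT3), ENL (MLLT1), AF10 (MLLT10) and AF4 (AFF1) belong to machinery of transcript elongation: AFF1 and AFF4 are scaffolds of the super elongation complex, which carries the kinase P-TEFb, and AF9, ENL and AF10 also bind DOT1L, the methyltransferase of lysine 79 on histone H3. In leukaemias with MLL fusions this machinery keeps HOXA genes and MEIS1 active, and the menin-MLL contact and DOT1L are both targets of inhibitors.

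Total counts were between 36547900 and 42446253 per library, so that 3 counts correspond to at most 0.0821 CPM, a count scaled to library size, and the 9 genes had between 620 and 18572 counts in a library. Levels below are CPM after TMM scaling, a method that takes most genes as unchanged, and tests are edgeR's quasi-likelihood tests over all genes with Benjamini-Hochberg adjustment, called at an adjusted p under 0.05. The myeloid markers CD33, PTPRC, SPI1, MPO, CSF3R, LYZ and FLT3 were present in every library, with a summed level of 1180 and 1150 CPM in vehicle and of 936 and 881 CPM with DB2115. Of these 7 markers 3 were called higher and 3 lower. Markers of red cells (at most 0.0483 CPM in sum) and epithelium (at most 0.569 CPM) were near absent. Of the B-cell markers reported, CD79A was called higher, at 0.854 and 0.896 CPM in vehicle and 9.24 and 8.65 CPM with DB2115, and MS4A1 had 1 count or none in each library. T-cell markers summed to at most 0.0569 CPM in vehicle and at most 1.37 CPM with DB2115. CD3E was called higher and CD3D had no count in vehicle. The part of these markers in the results below was not tested.

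With DB2115 the transcripts of this machinery changed in both directions. KMT2A, MLLT3 and AFF4 rose, and MEN1, PSIP1, DOT1L, MLLT1, MLLT10 and AFF1 fell. A called change was common in this experiment: 64.1% of all tested genes were called, 32.7% higher and 31.3% lower, and in 81.3% the groups did not overlap (42% higher with DB2115 and 39.4% lower), so the count of 9 called of 9 stands on a high background. The size of the changes was ordinary too, with a median absolute log2 fold change of 0.56 in the 9 genes and 0.56 over all tested genes. AFF4, MEN1, DOT1L and AFF1 were called with a change of at least 1.5-fold, as were 41.9% of all tested genes. AFF1 alone was called with a change of at least 2-fold, as were 27% of all tested genes. In bulk RNA fewer cells of a type and less RNA per cell cannot be told apart, and all changes are relative to the RNA sequenced.

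**Figure D1:**
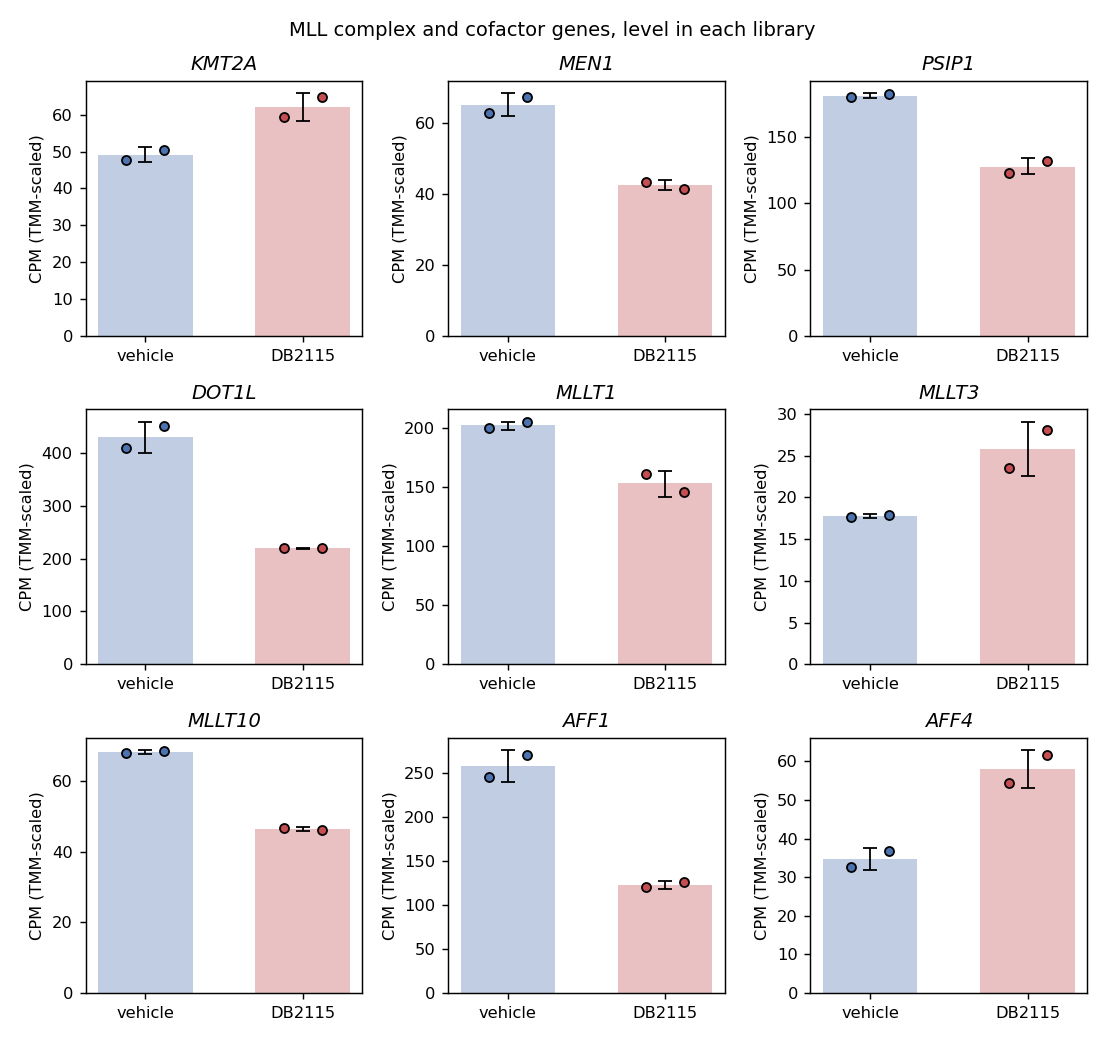
Level of each of the 9 genes, in CPM after TMM scaling, in vehicle (blue) and DB2115 (red). Points are single libraries, bars the mean and error lines the SD (n = 2). The groups do not overlap for any of the 9 genes, and KMT2A, MLLT3 and AFF4 are the 3 whose bars are higher with DB2115.

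Both genes that contribute to the MLL-AF9 fusion rose. KMT2A (GRCh38 chromosome 11, 118436464 to 118526832, plus strand) stood at 47.8 and 50.5 CPM in the vehicle libraries and at 59.3 and 64.7 CPM in the DB2115 libraries. The lower DB2115 library lay above both vehicle libraries. The rise was 1.26-fold (log2 fold change 0.33, SE 0.07, edgeR adjusted p = 0.0011), and 67.5% of tested genes had a larger absolute change. MLLT3, which encodes AF9, a reader of acylated histone lysines (chromosome 9, 20341665 to 20622543, minus strand), had 17.7 and 17.9 CPM in vehicle and 23.5 and 28.1 CPM with DB2115. The vehicle libraries were nearly equal and the DB2115 libraries lay apart from each other but above them. MLLT3 rose 1.45-fold (log2 fold change 0.53, SE 0.10, edgeR adjusted p = 0.000364). Counts per gene do not separate the intact alleles from the fusion, so reads of the fusion transcript fall under both genes, and which transcript carried the rise was not tested. The count of KMT2A divided by that of MLLT3 within a library was 2.71 and 2.82 in vehicle and 2.53 and 2.30 with DB2115.

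Across all genes, fold changes followed a joint trend with the GC content and length of the transcripts, and the estimates of these rises moved when it was removed. Without that trend the log2 fold change was 0.17 for KMT2A (edgeR adjusted p = 0.0478) and 1.02 for MLLT3 (edgeR adjusted p = 1.14e-06). The longest MLLT3 transcript has a GC content of 38.2%, and that of KMT2A 46.9%.

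The genes of both chromatin tethers of MLL were lower. MEN1, which encodes menin, the scaffold that binds the N-terminus of MLL (chromosome 11, 64803510 to 64811294, minus strand), had 63.0 and 67.5 CPM in vehicle and 43.5 and 41.5 CPM with DB2115. Neither DB2115 library came near the vehicle libraries, and the fall was 35% (log2 fold change -0.62, SE 0.07, edgeR adjusted p = 4.44e-06). Within a library, KMT2A had 0.759 and 0.749 counts per count of MEN1 in vehicle and 1.36 and 1.56 with DB2115, a ratio 1.94-fold higher. Such a ratio does not depend on the scaling of libraries, and with 2 libraries against 2 an exact two-sided permutation test cannot go below p = 0.333. Without the GC and length trend the log2 fold change of MEN1 was -1.04 (edgeR adjusted p = 3.6e-08).

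PSIP1 encodes LEDGF, a reader of methylated lysine 36 on histone H3 that holds the menin-MLL complex on chromatin (chromosome 9, 15464066 to 15511019, minus strand). Its level was 180 and 182 CPM in vehicle and 123 and 132 CPM with DB2115. The groups lay well apart, and PSIP1 fell by 29.4% (log2 fold change -0.50, SE 0.06, edgeR adjusted p = 9.84e-06). This call was lost when the GC and length trend was removed, where the log2 fold change was -0.01 (edgeR adjusted p = 0.915). PSIP1 shares 140 exonic bases with SNAPC3 on the opposite strand, whose counts were 3433 and 3959 in vehicle and 1607 and 1743 with DB2115. The strand setting of the counting is not known from the labels or files, and reads in that stretch cannot be assigned with certainty. Gene counts also do not separate the long LEDGF isoform, which binds menin-MLL, from the short one, which lacks that domain.

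The gene of the H3K79 methyltransferase itself fell close to 2-fold. DOT1L (chromosome 19, 2164149 to 2232578, plus strand) went from 408 and 450 CPM in vehicle to 220 and 219 CPM with DB2115. The vehicle libraries differed from each other more than the DB2115 libraries did, and the gap between the groups was wider than either difference. The fall was 1.95-fold (log2 fold change -0.97, SE 0.06, edgeR adjusted p = 3.14e-08). Its longest transcript has a GC content of 62.7%, and the log2 fold change was -1.72 after the GC and length trend was removed (edgeR adjusted p = 2.13e-10). DOT1L shares 529 exonic bases with PLEKHJ1 and 764 with the antisense gene AC004490.1, both on the opposite strand. PLEKHJ1 had 3499 and 4005 counts in vehicle and 2752 and 2423 with DB2115, and AC004490.1 had at most 34 counts in a library.

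The partners that bring DOT1L to chromatin did not move as a block. MLLT10, which encodes AF10, a cofactor of DOT1L that reads unmodified lysine 27 on histone H3 (chromosome 10, 21524675 to 21743630, plus strand), was at 67.9 and 68.6 CPM in vehicle and 46.8 and 46.1 CPM with DB2115. Libraries of a group were nearly equal, and MLLT10 fell by 31.9% (log2 fold change -0.56, SE 0.06, edgeR adjusted p = 6.27e-06). Its log2 fold change was -0.33 without the GC and length trend (edgeR adjusted p = 0.000581). MLLT1, which encodes ENL, the second YEATS-domain reader beside AF9 (chromosome 19, 6210379 to 6279948, minus strand), had 200 and 205 CPM in vehicle and 161 and 146 CPM with DB2115. It fell by 24.1% (log2 fold change -0.40, SE 0.06, edgeR adjusted p = 0.000132), and its log2 fold change was -0.96 without the trend (edgeR adjusted p = 3.9e-08). MLLT3 rose while DOT1L fell, and the count of MLLT3 divided by that of DOT1L went from 0.0433 and 0.0399 to 0.106 and 0.129, which is 2.82-fold higher.

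**Figure D2:**
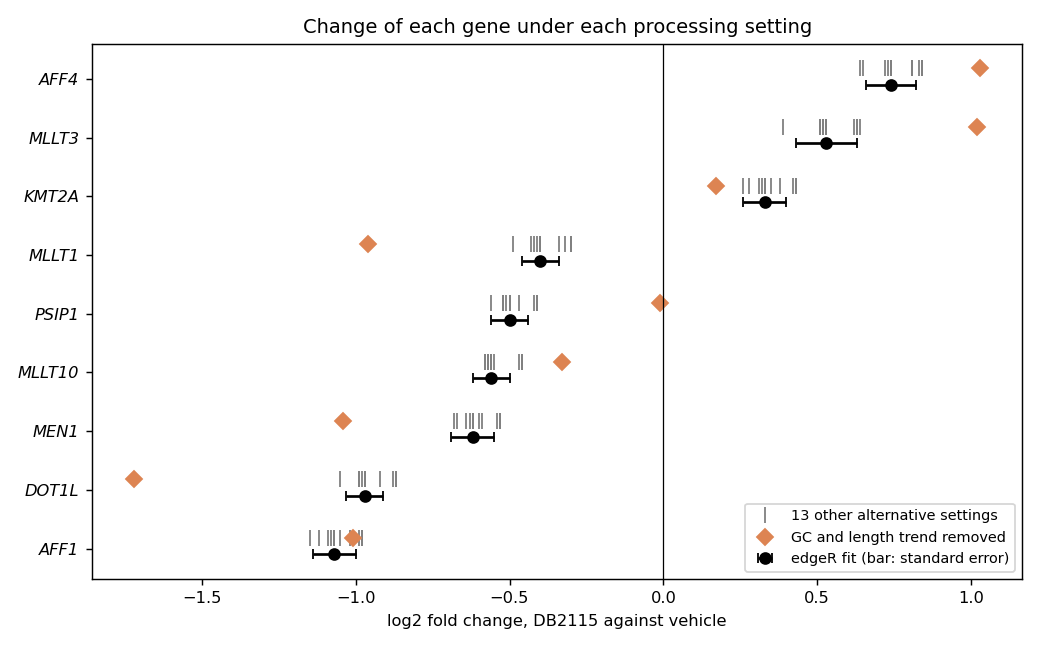
Log2 fold change of each of the 9 genes, DB2115 against vehicle. Black points and bars are the edgeR estimate and its standard error, grey marks the 13 other alternative settings, and orange diamonds the fit without the GC and length trend. Every grey mark lies on the same side of 0 as its estimate, and the diamond of PSIP1 lies at -0.01.

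The sequence upstream of the RefSeq gene start (GRCh38.p14) was found for 8 of the 9 genes, in 12 windows of 250 bases, since 4 genes have 2 starts. The series names PU.1, an ETS-family factor, so the windows were searched on both strands for GAGGAA, a core of PU.1 sites, and CCGGAA, a core of other ETS factors. The hexamers share their last 4 letters but cannot match the same 6 bases. GAGGAA was found in a window of MEN1 and one of PSIP1, and CCGGAA in one of KMT2A and one of MLLT10, 2 of 12 windows each, against 23.6% and 14.5% of 34788 such windows over all genes. The parts that lie outside annotated exons are shown for KMT2A, which rose, and for PSIP1 and MLLT10, which fell, to set CCGGAA upstream of a gene that rose beside CCGGAA upstream of one that fell. Capitals mark the hexamer, which in all 3 lies on the reverse strand and so reads as its reverse complement.
KMT2A, chr11:118436242-118436463, plus strand: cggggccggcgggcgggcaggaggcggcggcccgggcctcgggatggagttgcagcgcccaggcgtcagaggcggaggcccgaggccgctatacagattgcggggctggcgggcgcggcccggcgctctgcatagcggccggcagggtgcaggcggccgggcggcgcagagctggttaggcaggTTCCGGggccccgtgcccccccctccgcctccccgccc
PSIP1, chr9:15511020-15511220, minus strand: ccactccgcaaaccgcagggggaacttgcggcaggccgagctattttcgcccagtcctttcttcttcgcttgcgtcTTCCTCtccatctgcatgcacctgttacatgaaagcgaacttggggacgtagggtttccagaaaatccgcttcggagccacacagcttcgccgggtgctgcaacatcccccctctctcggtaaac
MLLT10, chr10:21533982-21534164, plus strand: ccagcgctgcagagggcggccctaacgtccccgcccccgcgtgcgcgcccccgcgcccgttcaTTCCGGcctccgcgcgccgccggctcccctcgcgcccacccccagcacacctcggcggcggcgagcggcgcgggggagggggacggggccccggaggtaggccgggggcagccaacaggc
GGGCGG, the core of SP1 sites, was found in 9 of the 12 windows (42.6% of windows over all genes) and CCAAT, the core of NF-Y sites, in 7 of 12 (32% of windows over all genes). The windows of MEN1 overlap each other, and the CCAAT found in each of them is the same stretch. A match describes these letters and is not a binding site, and no binding data were used here.

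The scaffolds of the super elongation complex moved in opposite directions. AFF1, the AF4 protein and a frequent MLL fusion partner (chromosome 4, 86935002 to 87141054, plus strand), stood at 245 and 271 CPM in vehicle and at 120 and 126 CPM with DB2115. Every DB2115 value was below every vehicle value by a wide margin. AFF1 fell 2.10-fold (log2 fold change -1.07, SE 0.07, edgeR adjusted p = 1.62e-08), the largest change among the 9 genes, and 26.6% of tested genes had a larger one. AFF4, the paralogous scaffold (chromosome 5, 132875379 to 132963634, minus strand), had 32.7 and 36.7 CPM in vehicle and 54.5 and 61.6 CPM with DB2115. It rose 1.67-fold (log2 fold change 0.74, SE 0.08, edgeR adjusted p = 4.48e-06). Without the GC and length trend the log2 fold changes were -1.01 for AFF1 (edgeR adjusted p = 2.85e-08) and 1.03 for AFF4 (edgeR adjusted p = 2.08e-07).

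The upstream windows of this pair are shown because the genes share a function and changed in opposite ways, with GGGCGG or its reverse complement in capitals. Each stretch holds 3 matches, and neither holds GAGGAA or CCGGAA.
AFF1, chr4:86934761-86935001, plus strand: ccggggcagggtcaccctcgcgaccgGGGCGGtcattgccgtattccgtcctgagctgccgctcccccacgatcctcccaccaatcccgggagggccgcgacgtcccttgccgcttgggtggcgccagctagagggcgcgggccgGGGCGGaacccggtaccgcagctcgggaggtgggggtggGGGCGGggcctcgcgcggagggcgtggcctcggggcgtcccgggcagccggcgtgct
AFF4, chr5:132963635-132963884, minus strand: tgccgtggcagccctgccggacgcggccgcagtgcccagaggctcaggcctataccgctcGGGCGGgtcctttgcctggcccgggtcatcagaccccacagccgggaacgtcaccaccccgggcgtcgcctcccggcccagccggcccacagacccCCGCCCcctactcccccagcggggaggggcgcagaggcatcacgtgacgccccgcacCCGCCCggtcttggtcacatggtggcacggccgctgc
In the windows shown, the gene that fell and the gene that rose had equal numbers of GGGCGG. Of this pair, CCAAT was found upstream of AFF1 alone. The second window of AFF1, not shown, held 0 GGGCGG and 1 CCAAT. Among the other genes with a window, CCAAT was found upstream of MEN1, MLLT1 and MLLT10, which fell, and of MLLT3, which rose. It was not found upstream of PSIP1, which fell, or of KMT2A, which rose. A link between CCAAT and the direction of change was not tested.

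In the counts as deposited, the balance within 4 of 5 pairs of paralogs shifted by at least 1.9-fold, but without the GC and length trend this did not hold for the pairs of PSIP1 and MLLT10. The count of AFF1 divided by that of AFF4 in the same library was 7.52 and 7.38 in vehicle and 2.20 and 2.05 with DB2115, 3.51-fold lower. For MLLT1 over MLLT3 the ratio was 11.3 and 11.4 in vehicle and 6.88 and 5.18 with DB2115, 1.90-fold lower. In both pairs the gene that fell lost ground to a paralog that rose. PSIP1 over HDGFL2, its closest relative, went from 1.71 and 1.69 to 0.811 and 0.919, 1.97-fold lower. MLLT10 over MLLT6, which encodes the related AF17, went from 0.325 and 0.311 to 0.152 and 0.146, 2.14-fold lower. The ratio of KMT2A to KMT2B, its sister methyltransferase, went from 0.296 and 0.281 to 0.345 and 0.391, 1.27-fold higher.

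In the pairs of PSIP1 and MLLT10 both genes were called in the edgeR fit. HDGFL2 rose from 105 and 108 CPM to 152 and 144 CPM (log2 fold change 0.48, edgeR adjusted p = 1.54e-05) and MLLT6 from 209 and 221 CPM to 308 and 316 CPM (log2 fold change 0.54, edgeR adjusted p = 3.62e-06). Without the GC and length trend neither rise was called, at log2 fold changes of 0.01 for HDGFL2 (edgeR adjusted p = 0.88) and -0.07 for MLLT6 (edgeR adjusted p = 0.316), beside -0.01 for PSIP1 and -0.33 for MLLT10. KMT2B was not called, at 162 and 180 CPM in vehicle and 172 and 166 CPM with DB2115 (log2 fold change -0.02, edgeR adjusted p = 0.837), but was called lower once the trend was removed (log2 fold change -0.83, edgeR adjusted p = 1.96e-07), beside 0.17 for KMT2A, so the order of the pairs by size of shift also differed in that setting. AFF3, another scaffold of the family, rose from 45.8 and 50.5 CPM to 63.9 and 63.3 CPM (log2 fold change 0.40, edgeR adjusted p = 0.000245), and its log2 fold change without the trend was 0.37. AFF2 was too low to test.

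**Figure D3:**
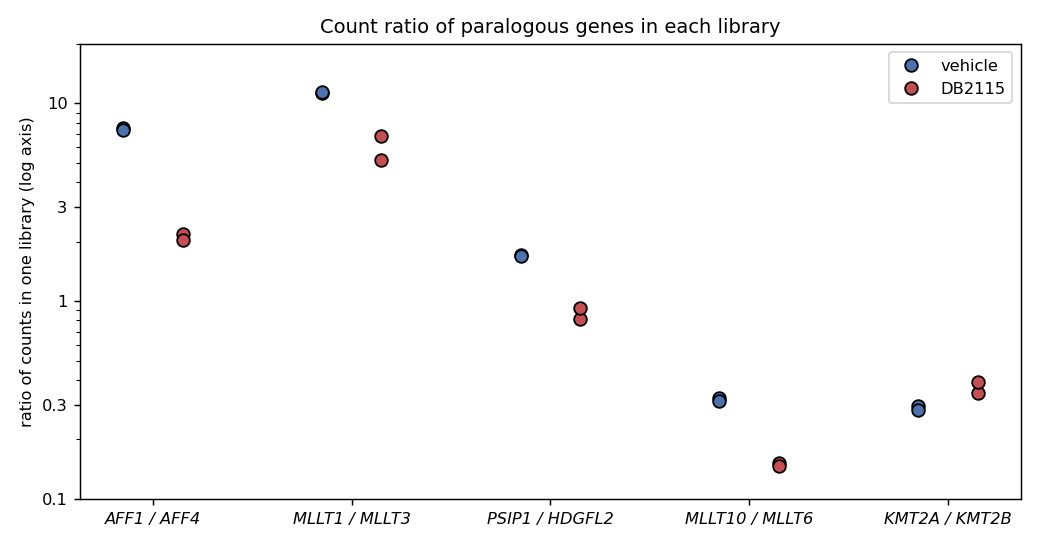
Count of the first gene divided by that of the second within each library, on a log axis, for 5 pairs of paralogs. Points are single libraries, vehicle in blue and DB2115 in red. The ratio of AFF1 to AFF4 falls from 7.52 and 7.38 to 2.20 and 2.05, and the ratio of KMT2A to KMT2B is the one that is higher with DB2115.

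Levels of different genes were compared per length, as CPM per kilobase of merged annotated exons. In vehicle the order was MLLT1 (42.6 ± 0.768, SD, n = 2), DOT1L (38.0 ± 2.62), PSIP1 (26.7 ± 0.264), AFF1 (24.1 ± 1.68), MEN1 (15.4 ± 0.753), MLLT10 (9.83 ± 0.075), AFF4 (3.07 ± 0.253), MLLT3 (2.19 ± 0.0257) and KMT2A (1.57 ± 0.0613). The 3 genes that rose were thus the 3 lowest per length, and the 6 that fell the 6 highest. With DB2115 the order was the same, but the libraries of DOT1L (19.6 and 19.4) and PSIP1 (18.2 and 19.5) overlapped, and the other neighbours did not. MLLT1 was still the highest at 32.4 ± 2.35 and KMT2A the lowest at 1.98 ± 0.122. With the longest annotated transcript as the length, an alternative chosen after seeing the data, DOT1L was the highest in vehicle (57.7 ± 3.97) and PSIP1 with DB2115 (37.7 ± 1.85), while KMT2A (2.96 ± 0.115) lay above MLLT3 (2.63 ± 0.0308) in vehicle. The merged exons of KMT2A span 31305 bases and its longest transcript 16628, which lowers its level on the first scale.

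The genes nearest to AFF1 in level and pattern over the 4 libraries, by Euclidean distance in log2 CPM, were EIF5B, which encodes a factor of ribosome subunit joining (distance 0.131), GTF3A, which encodes the transcription factor of 5S ribosomal RNA (0.167), and BCAT1, which encodes a branched-chain amino acid transaminase (0.167). EIF5B had 247 and 268 CPM in vehicle and 124 and 137 CPM with DB2115.

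Partners of menin, MLL and LEDGF outside the 9 genes moved mostly downward or were not called. Of 9 tested, 1 rose and 4 fell (55.6%, beside 64.1% of all genes), with a median log2 fold change of -0.11 beside 0.03 over all genes. WDR5, the subunit that docks MLL to its catalytic core, fell from 140 and 128 CPM to 73.5 and 71.0 CPM (log2 fold change -0.89, edgeR adjusted p = 9.7e-08). DPY30, a core subunit shared by all such complexes, fell from 28.6 and 29 to 18.4 and 17.9 CPM (log2 fold change -0.67, edgeR adjusted p = 9.89e-06), a call lost without the GC and length trend (log2 fold change -0.17, edgeR adjusted p = 0.0848). HDGFL2, given above, was the gene that rose. With that trend removed 1 of the 9 was called higher, HCFC2 (log2 fold change 0.6, edgeR adjusted p = 0.000229). In that setting 2 were called lower, WDR5 and HCFC1 (-0.86 for HCFC1, edgeR adjusted p = 4.81e-07). Neither HCFC2 nor HCFC1 was called in the edgeR fit as reported, and of the calls in that fit only that of WDR5 was kept. The median was -0.02 with upper-quartile factors or total counts.

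The other methyltransferase complexes of lysine 4 held 12 tested genes, of which 1 rose and 5 fell (median log2 fold change -0.09). The share called was 50%, beside 64.1% of all genes. BOD1, a subunit of SETD1B complexes, fell (log2 fold change -1.04, edgeR adjusted p = 7.9e-06), and so did PAXIP1, a subunit of KMT2C and KMT2D complexes (-0.60, edgeR adjusted p = 5.06e-06). KMT2C rose (0.43, edgeR adjusted p = 0.000171). With upper-quartile factors or total counts 3 of these genes were called higher and 3 lower (median 0), and with the GC and length trend removed 1 higher and 7 lower (median -0.55).

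Among 9 tested partners of the super elongation complex, 4 rose and 4 fell (88.9% called, beside 64.1% of all genes). Their median log2 fold change was 0.37, and 0.17 with the filter of 1 CPM in 3 libraries. EAF2, a cofactor of ELL proteins, fell from 19.1 and 18.7 CPM to 4.77 and 5.31 CPM (log2 fold change -1.90, SE 0.11, edgeR adjusted p = 9.83e-09). ELL2, an elongation factor of the complex, rose from 3.10 and 3.97 CPM to 8.11 and 9.01 CPM (log2 fold change 1.27, edgeR adjusted p = 1.45e-05). Its relative ELL, itself an MLL fusion partner, rose as well (log2 fold change 0.57, edgeR adjusted p = 7.45e-06). The rise of ELL was not called without the GC and length trend (log2 fold change 0.11, edgeR adjusted p = 0.172), a setting in which 3 of these 9 genes were called higher and 1 lower, with a median of 0.11. CCNT2, called lower in the edgeR fit as reported (-0.20, edgeR adjusted p = 0.0333), was among those called higher there (0.35, edgeR adjusted p = 0.00135).

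Of 5 genes listed around DOT1L, AF9 and ENL, 1 rose (MLLT6, above) and 3 fell (80% called, beside 64.1% of all genes). This list includes YEATS2 and YEATS4, which are relatives of AF9 and ENL rather than their partners. The median log2 fold change was -0.24, -0.14 with upper-quartile factors or total counts, -0.16 with the filter of 1 CPM and -0.49 without the GC and length trend. YEATS2 (-0.61, edgeR adjusted p = 3.6e-05) and YEATS4 (-0.62, edgeR adjusted p = 4.64e-06), readers of the same domain family as AF9 and ENL, were among those that fell, and the call of YEATS4 was lost without the GC and length trend (-0.16, edgeR adjusted p = 0.0544). Of 10 genes of the PAF1 complex, to which MLL binds, and of histone H2B ubiquitination, which stimulates DOT1L, 3 rose and 2 fell. The share called was 50%, beside 64.1% of all genes. The median log2 fold change was 0.10, and 0.41 without the GC and length trend. PAF1 rose (0.46, edgeR adjusted p = 6.05e-05), RNF20, a ligase of H2B, rose (0.23, edgeR adjusted p = 0.015) and LEO1, a subunit of the complex, fell (-0.29, edgeR adjusted p = 0.00411), a call that was lost without that trend and without vehicle library A. The call of RNF20 was lost without vehicle library A, vehicle library B or DB2115 library B. With upper-quartile factors or total counts 6 were called higher and 1 lower (median 0.20), and without the trend 7 higher and 1 lower. CDC73, called lower in the edgeR fit as reported (-0.16, edgeR adjusted p = 0.0379), was among those called higher without the trend (0.49, edgeR adjusted p = 1.93e-05). The count of 5 was 1 without vehicle library A, 2 without vehicle library B and 2 without DB2115 library B.

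Known target genes of MLL fusions changed in both directions as well. Of 15 tested, 4 rose and 9 fell (86.7% called, beside 64.1% of all genes). Their median log2 fold change was -0.76, -0.41 without the GC and length trend, -0.48 with no filter on low counts and -0.39 with the filter of 1 CPM. PBX3 was among those that fell (-0.18, edgeR adjusted p = 0.0278), but its call was lost in 8 of the 14 alternatives. Without the trend its log2 fold change was 0.14 (edgeR adjusted p = 0.0777), and 4 genes of the list were called higher and 7 lower. MYB, a progenitor transcription factor, had a log2 fold change of -2.65, FLT3, a receptor kinase, one of -1.63, ZEB2, a zinc finger factor, one of -1.60, MEF2C one of -1.28 and CDK6 one of -1.19, all lower by edgeR with adjusted p of at most 5.62e-09. IKZF2 fell from low levels, 1.20 and 1.24 CPM (log2 fold change -1.32, edgeR adjusted p = 0.0227), a call lost without vehicle library B, without DB2115 library A and without the GC and length trend. The genes that rose were HOXA7, HOXA9, HOXA10 and MEIS1, with log2 fold changes between 0.40 and 0.87.

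**Figure D4:**
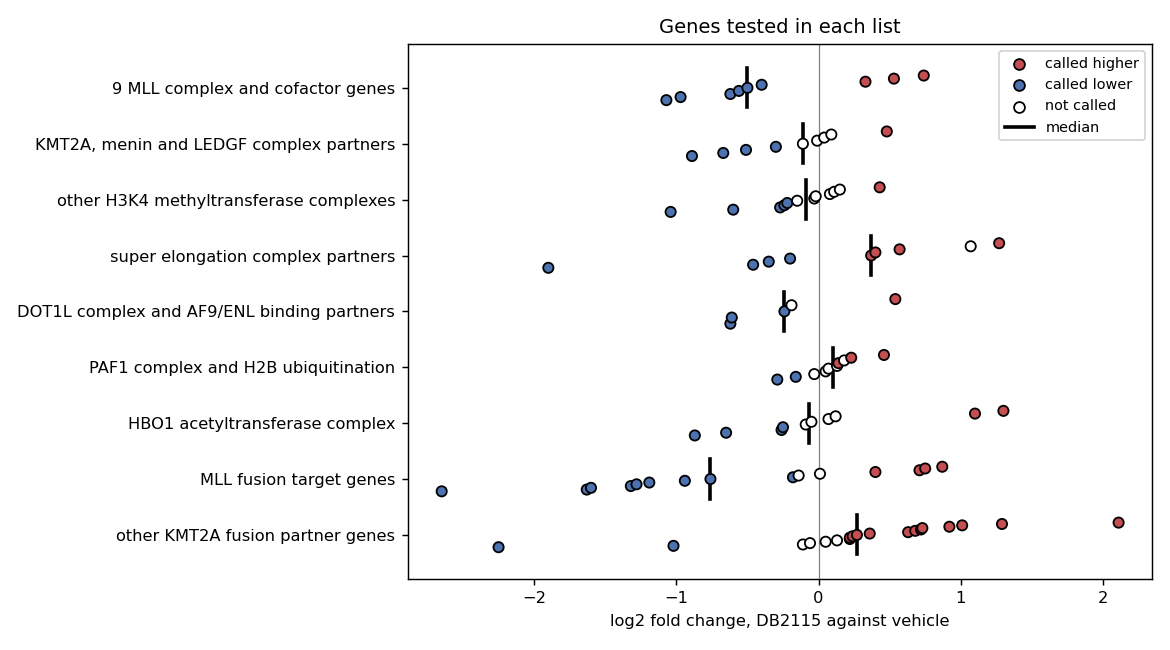
Log2 fold change, DB2115 against vehicle, of each tested gene (points) in the 9 MLL complex and cofactor genes and in 8 lists of related genes. Red points were called higher, blue points lower and white points not called, and the black bar is the median of each list. The median of the MLL fusion target genes is -0.76 and that of the other KMT2A fusion partner genes 0.27.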

How the data were processed

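The members and the gene lists were chosen with earlier results of these data known. The authors deposited raw read counts per gene in 6 columns. FastQC, STAR, DESeq2 and the build hg38 appear in the submitters' processing notes, without versions or roles. The counter, its annotation and its strand setting were not given in the sources used here. Of the 58381 gene IDs, 58261 were given symbols from GENCODE 29, after dropping the ID version. Locations and lengths are from that release (GRCh38), and promoter sequences from RefSeq (GRCh38.p14).

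Columns A and B of each group were compared in R 4.3.3 with edgeR 4.0.16 (TMM scaling, filterByExpr with minimum counts of 10 and 15 in all, quasi-likelihood test, Benjamini-Hochberg adjustment). Counts of A and B differed by more than sampling noise (median chi-square over genes of 1.48 in vehicle and 1.91 with DB2115, beside 0.455 from sampling alone). The fit was also tested on counts simulated with the depths and mean levels of this comparison (17219 genes). It recovered 84% of 50 genes changed 1.5-fold and 86% of 50 changed 2-fold, and 14 of 199 calls were false. In the simulation few genes changed and all had the same relative spread between libraries. In the data 64.1% of genes were called, so these rates need not hold for them. Named are all 9 genes; in each list up to 3 called genes with the smallest adjusted p and each called gene with an absolute log2 fold change of at least 1; the paralogs; and the 3 genes nearest to AFF1, the member with the smallest adjusted p. Also named are some list genes whose call changed in an alternative setting. Ratios of counts within a library have no test. Alternatives were DESeq2 1.42.0, limma-voom (limma 3.58.1), other scalings and filters, the column letter as a block, all 6 columns, an offset that removes a loess trend (span 0.3) of fold change with GC content and length of the longest transcript, and leaving out each library. A marker of the B-cell list is not reported here.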

Additional observations from a re-analysis of the deposited data

How the results depend on the processing

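All 9 genes kept their direction under the 14 alternatives, and of their calls only that of PSIP1 was lost, without the GC and length trend (log2 fold change -0.01, edgeR adjusted p = 0.915). The alternative with all 6 columns repeats the reads of A and B in column V, so it is no independent check. KMT2A ranged from 0.17 to 0.43, MLLT3 from 0.39 to 1.02, AFF4 from 0.64 to 1.03, MEN1 from -1.04 to -0.53, DOT1L from -1.72 to -0.87, MLLT1 from -0.96 to -0.30, MLLT10 from -0.58 to -0.33 and AFF1 from -1.15 to -0.98. Without that trend 3 partners of menin, MLL and LEDGF were called (5 in the edgeR fit as reported), 4 super elongation complex partners (8) and 8 genes of the PAF1 and H2B ubiquitination list (5). The genes called were not all the same as in the reported fit, and CCNT2 and CDC73 went from called lower to called higher. The last list had 3 calls with DESeq2 and between 1 and 4 when a library was left out, which leaves 1 residual degree of freedom and a lone library that is assumed to vary like the others. The causes were not tested. With the column letter as a replicate block, 11424 genes and all 9 members were called. The letters do not pair the samples by any label, their deviations had a correlation of 0.02, and the block changed no call of a member. Upper-quartile factors or total counts moved the median of all genes by 0.09 (log2). A gene with 3 counts in a library stands at 0.0707 to 0.0821 CPM, so genes such as AFF2, with at most 6 counts, could not be compared at this depth.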

Other observations

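Genes that are fused to KMT2A in other leukaemias, and that are not partners of the complexes above, were higher more often than lower. Of 19 tested, 13 rose and 2 fell (78.9% called, beside 64.1% of all genes). Over all genes 32.7% were called higher and 31.3% lower. The median log2 fold change of the list was 0.27, beside 0.03 over all genes, and 0.39 without the GC and length trend. Without that trend 15 were called higher and 3 lower. The 15 include EPS15, SEPT6 and KNL1, which were not called in the edgeR fit as reported. SH3GL1, called higher as reported (0.22, edgeR adjusted p = 0.00621), was called lower without the trend (-0.27, edgeR adjusted p = 0.0015). Some of the 13 rises were no longer called when a vehicle library was left out. GAS7, an actin-binding adaptor gene, had 53.8 and 55.7 CPM in vehicle and 233 and 238 CPM with DB2115 and rose 4.30-fold (log2 fold change 2.11, edgeR adjusted p = 2.43e-11). LASP1, another actin-binding adaptor, rose from 295 and 280 CPM to 694 and 710 CPM (1.29, edgeR adjusted p = 1.63e-09). The septin gene SEPT9 rose from 192 and 183 CPM to 350 and 360 CPM (log2 fold change 0.92, edgeR adjusted p = 2.14e-08), and its log2 fold change was 0.44 without the GC and length trend. MLLT11 rose from 4.07 and 5.88 CPM to 10.0 and 10.2 CPM (1.01, edgeR adjusted p = 0.000113). SEPT5, a second septin gene, fell from 5.86 and 6.76 CPM to 3.32 and 2.92 CPM (log2 fold change -1.02, edgeR adjusted p = 0.000163). TET1, a gene of DNA demethylation, had 16 and 25 counts in vehicle and 2 and 7 with DB2115 (log2 fold change -2.25, edgeR adjusted p = 0.00692), a call lost without vehicle library B or DB2115 library A.

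The HBO1 acetyltransferase complex, which acts beside MLL fusions in leukaemia cells, had 2 of 10 genes higher and 4 lower, with a median log2 fold change of -0.07. The share called was 60%, beside 64.1% of all genes. With upper-quartile factors or total counts 3 were higher and 4 lower (median 0.02), and without the GC and length trend 3 higher and 6 lower (median -0.36). The scaffold gene BRPF3 rose from 39.3 and 40.7 CPM to 97.1 and 99.4 CPM (1.30, edgeR adjusted p = 2.19e-09). ING4, a reader of methylated lysine 4 on histone H3, rose from 9.02 and 8.36 CPM to 19.1 and 18 CPM (1.10, edgeR adjusted p = 7.78e-07). JADE1, an alternative scaffold to BRPF3, fell from 57.1 and 57.5 CPM to 36.8 and 36.2 CPM (log2 fold change -0.65, edgeR adjusted p = 1.87e-06).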
